A study of Mus musculus with 12 samples.

Results

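Sdk1 and Sdk2, the Sidekick adhesion molecules, were followed in the cerebellum of SCA1 and WT mice with and without wheel running. They are the 2 Sidekick genes of the mouse among the 56941 genes of each count table, and both were among the 20341 genes that passed the filter on low counts. They were found by Ensembl ID. The pair was chosen by the counts of these libraries, in which Sdk1 differed between SCA1 sedentary and WT sedentary mice, and Sdk2 was taken as its only relative.

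RNA was sequenced from the cerebellum of 12 mice, 3 in each of 4 groups. SCA1 mice were heterozygous Atxn1154Q/2Q knock-ins, in which the mutant Atxn1 allele carries an expanded CAG repeat at its own locus and is expressed in every cell type that uses that gene, and WT mice were C57BL/6J littermates. The WT exercise and SCA1 exercise mice were housed alone with a free running wheel for 12 weeks, from 4 to 16 weeks of age, whereas the WT sedentary and SCA1 sedentary mice had no wheel and shared cages, so that running and housing cannot be told apart. Male and female mice were used, all were perfused with saline after behavioural tests that began at about 16 weeks, and the labels do not give the sex of each mouse.

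Sidekicks are large single-pass membrane proteins of the immunoglobulin superfamily, with immunoglobulin domains followed by fibronectin type III repeats and a short tail that binds PDZ domains. Each Sidekick binds its own kind on a facing membrane, and in the retina neurons that share a Sidekick form synapses in the same sublayers. Their tails bind MAGI scaffold proteins, which hold them at synapses.

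Sdk1 (ENSMUSG00000039683) lies on the plus strand of chromosome 5 of GRCm39 from 141227245 to 142201341. It spans 974 kb, of which 11087 bases, or 1.14%, are exons in GENCODE M39. Its 2 coding transcripts begin far apart, one with 45 exons at the start of the gene and one with 41 exons at 141842542. Sdk2 (ENSMUSG00000041592) lies on the minus strand of chromosome 11 from 113667200 to 113957872, spans 290.7 kb and has 15469 bases of exons. Counts per gene do not separate the transcripts of either gene.

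The bases just before the annotated start of each gene are shown because the results concern the amount of transcript and because Capicua, a repressor that binds ataxin-1, reads a short sequence in the promoters of its targets. Both are read 5′ to 3′ on the strand of the gene, from the RefSeq promoter table (GRCm38.p6), and both were found once in their chromosome of GRCm39, at chr5:141227039-141227244 on the plus strand and at chr11:113957873-113958105 on the minus strand. Capitals mark GC boxes (GGGCGG) and CCAAT boxes on either strand.

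Sdk1: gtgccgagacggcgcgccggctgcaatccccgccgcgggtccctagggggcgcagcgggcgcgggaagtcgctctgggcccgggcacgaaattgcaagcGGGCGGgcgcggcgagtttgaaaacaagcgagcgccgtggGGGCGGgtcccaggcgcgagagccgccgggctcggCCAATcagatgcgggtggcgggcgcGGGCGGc

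Sdk2: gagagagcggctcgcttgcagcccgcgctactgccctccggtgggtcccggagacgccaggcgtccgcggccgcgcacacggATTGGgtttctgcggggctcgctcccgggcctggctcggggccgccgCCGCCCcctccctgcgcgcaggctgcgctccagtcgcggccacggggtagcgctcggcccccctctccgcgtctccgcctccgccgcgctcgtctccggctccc

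Both starts are rich in CpG. In the 250 bases before the RefSeq start, which ends 44 bases inside the GENCODE gene for Sdk1 and 17 bases inside it for Sdk2, there were 44 CpG and 78.0% GC for Sdk1 and 38 CpG and 78.8% GC for Sdk2. The median of 32851 windows of the same length was 6 CpG and 52.4% GC, and 99.5% and 98.1% of them held fewer CpG than the windows of Sdk1 and Sdk2. The Sdk1 window held 3 GC boxes and the Sdk2 window 1, and 32.7% of all windows held at least 1. Each held 1 CCAAT box, found in 33.8% of windows. The 4 forms of the Capicua octamer searched on both strands, TGAATGAA, TGAATGGA, TCAATGAA and TCAATGGA, were in neither window, and 3.19% of all windows held at least 1 of them. The window shown for Sdk2 precedes the first annotated base of the gene, a noncoding transcript, whereas its longest coding transcript begins at 113957044.

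The libraries held 20556802 to 32127508 counts on the reverse strand, which were used throughout, and the counts are given as CPM, counts per 1000000 with library sizes scaled by TMM. Mice 16 (SCA1 sedentary) and 55 (SCA1 exercise) stood apart. Multimapping read pairs made up 6.38% and 6.33% of their libraries and 2.08% to 3.46% of the others. The summed CPM of 6 brainstem and spinal cord markers (Hoxb3, Hoxb4, Hoxb5, Hoxa5, Hoxc4 and Tph2) was 44.7 and 38.4 in these mice and 0.350 to 3.07 in the other 10. Markers of Purkinje and granule cells were abundant in all 12 libraries. Atxn1, the gene with the expanded repeat, was at 153 ± 8.28 and 166 ± 6.05 CPM in the sedentary and running WT mice and at 172 ± 17.9 and 175 ± 24.3 CPM in the sedentary and running SCA1 mice (SD, n = 3), and its counts do not tell the expanded from the normal allele. Values after ± are SDs over 3 mice. The labels do not give the litter or cage of each mouse, so littermates and cage mates cannot be identified. The edgeR p-values rest on the spread between mice within groups, estimated over all 12 libraries with information shared between genes.

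Sdk1 was at its highest in SCA1 sedentary mice, lower in SCA1 exercise mice and lowest in both WT groups. In WT sedentary mice 116, 117 and 192 it was at 5.62, 6.54 and 9.17 CPM, a mean of 7.11 ± 1.84. In SCA1 sedentary mice 16, 194 and 195 it was at 20.0, 18.8 and 18.7 CPM, a mean of 19.2 ± 0.706. The 3 SCA1 values lay close together and all were more than double the highest WT value. This is the contrast on which Sdk1 was chosen, so it is described and not tested. The fitted log2FC was 1.43 (SE 0.17), a 2.7-fold difference, and it was 1.42 without mice 16 and 55. Of all genes tested, 0.0344% were called in this contrast (p-adj under 0.05, log2FC beyond 0.5 in either direction), and 5.6% were higher in SCA1 mice with no overlap between the groups.

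In the running groups Sdk1 was again higher in SCA1 than in WT mice, by a smaller margin. WT exercise mice 121, 197 and 201 had 8.06, 8.89 and 8.12 CPM, a mean of 8.36 ± 0.460. SCA1 exercise mice 55, 122 and 198 had 14.3, 13.7 and 13.3 CPM, a mean of 13.8 ± 0.50. No value of one group reached the other, as was the case for 7.32% of all genes in this direction. These 6 libraries are not in the contrast on which Sdk1 was chosen, and a test was made. Their values were already known when the pair was chosen and the fit takes its spread from all 12 libraries, so the test is not independent evidence. The log2FC was 0.72 (SE 0.17, 95% interval 0.36 to 1.08), a 1.65-fold difference. In edgeR's quasi-likelihood test across all genes the p-adj was 0.960, so that Sdk1 did not pass the threshold. The two-sided exact permutation test gave p = 0.1, the smallest that 3 mice against 3 allow. In this contrast edgeR called 0 genes, or 0.0% of those tested, with 596 at an unadjusted p under 0.05, and DESeq2 called 3. Without mice 16 and 55 the log2FC of Sdk1 was 0.70 (p-adj = 0.202).

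**Figure D1:**
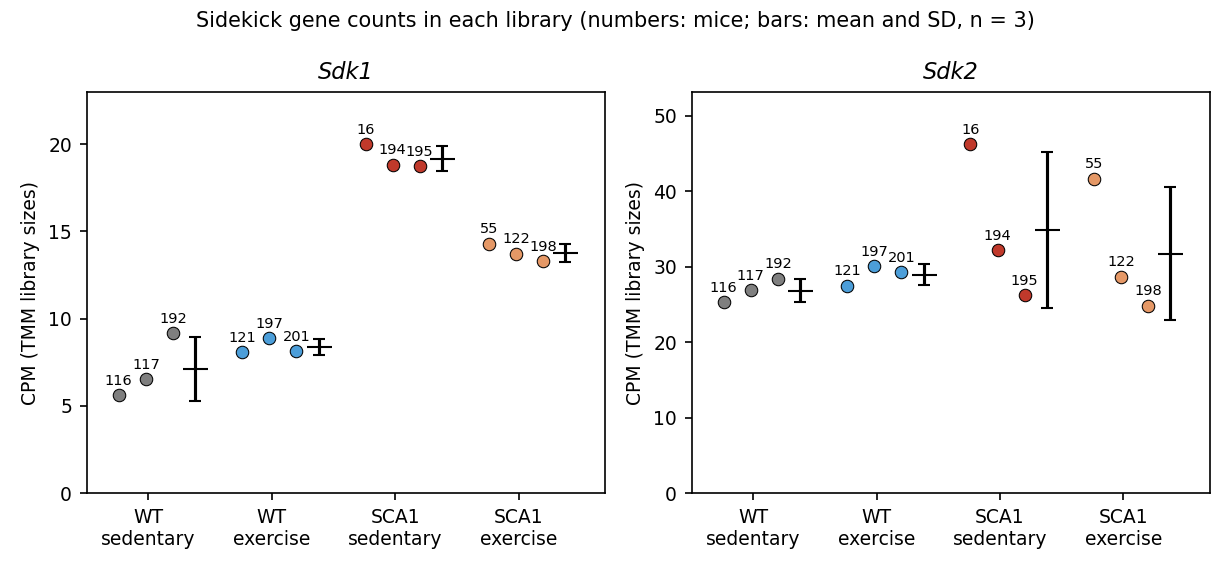
CPM of Sdk1 (left) and Sdk2 (right) in each of the 12 libraries on linear axes from 0, by group, with mouse numbers above the points and the mean and SD of each group (n = 3) beside them. Sdk1 lay between 5.62 and 9.17 CPM in WT mice, between 13.3 and 14.3 in SCA1 exercise mice and between 18.7 and 20.0 in SCA1 sedentary mice, and Sdk2 was highest in mice 16 and 55.

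Within SCA1 mice, Sdk1 was lower with wheel running. All 3 SCA1 exercise mice were below all 3 SCA1 sedentary mice, as 2.07% of all genes were, and the log2FC was −0.48 (SE 0.16), or 0.718 of the sedentary level. Within WT mice the values of the groups overlapped, and the log2FC was 0.23 (SE 0.17). Between SCA1 exercise and WT sedentary mice it was 0.95 (SE 0.17), again with no overlap, as for 5.3% of all genes in this direction. These contrasts share libraries with the one on which Sdk1 was chosen and are given without a test. As a description only, mean log2 CPM differed by 0.476 between SCA1 sedentary and SCA1 exercise mice, where the larger SD was 0.0524. It differed by 0.715 between SCA1 exercise and WT exercise mice (larger SD 0.0776) and by 0.260 between the WT groups (larger SD 0.358). The SCA1 groups had coefficients of variation of 3.68% and 3.64%, below what counting alone gives for their libraries. The biological coefficient of variation of Sdk1 in the fit was 15.8%, so these SDs are no yardstick for a test. The WT sedentary group was the most variable for Sdk1, with a coefficient of variation of 25.9% against 3.64% to 5.51% in the other groups. Counting alone gives 4.20% to 8.08% at the 153 to 566 counts of Sdk1 per library. Mouse 192 set that spread. Without it, the log2FC of WT exercise against WT sedentary was 0.46.

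Sdk2 did not follow this pattern. It had 25.2, 26.8 and 28.4 CPM in WT sedentary mice 116, 117 and 192 and 27.5, 30.1 and 29.3 CPM in WT exercise mice 121, 197 and 201. It had 46.2, 32.2 and 26.2 CPM in SCA1 sedentary mice 16, 194 and 195 and 41.6, 28.6 and 24.8 CPM in SCA1 exercise mice 55, 122 and 198. The group means were 26.8 ± 1.58, 28.9 ± 1.34, 34.8 ± 10.3 and 31.7 ± 8.81 CPM in the same order, and every group overlapped every other. The SD in each SCA1 group was several times that in either WT group.

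None of the tests of Sdk2 passed the threshold. For SCA1 exercise against WT exercise the log2FC was 0.13 (SE 0.21, 95% interval −0.32 to 0.59, p-adj = 0.961, exact permutation p = 0.9). For WT exercise against WT sedentary it was 0.11 (95% interval −0.34 to 0.56, p-adj = 0.974, exact permutation p = 0.2). For SCA1 exercise against SCA1 sedentary it was −0.14 (95% interval −0.59 to 0.32, p-adj = 0.999, exact permutation p = 0.6). These intervals reach 0.59 in size on the log2 scale, so the tests do not show that Sdk2 was the same in these groups. The interaction of genotype and exercise was −0.25 (95% interval −0.89 to 0.39, p-adj = 1.00). SCA1 sedentary against WT sedentary, described only, gave 0.38 (SE 0.21).

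**Figure D2:**
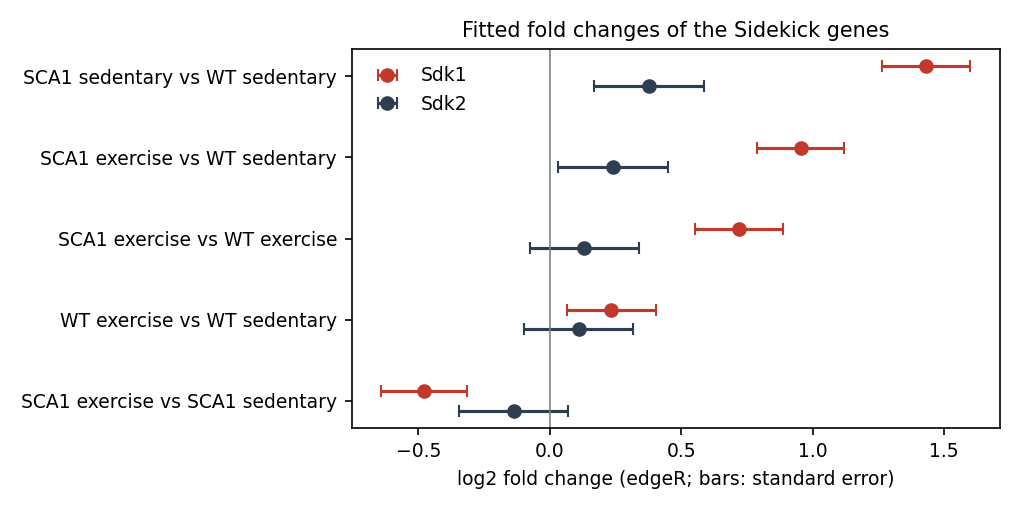
Fitted log2FC of Sdk1 and Sdk2 in the 5 comparisons of groups, from a single edgeR model of all 12 libraries, with bars for the SE. Sdk1 was at 1.43, 0.95 and 0.72 in the comparisons of SCA1 with WT mice and at −0.48 for running in SCA1 mice, and Sdk2 lay between −0.14 and 0.38.

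The high values of Sdk2 belonged to mice 16 and 55. They held 46.2 and 41.6 CPM, against 24.8 to 32.2 CPM (median 27.9) in the other 10 mice. Of all genes tested, 17.1% were likewise higher in both of these mice than in every other. Several marker sums moved with these 2 libraries. The sum for deep nuclei and other projection neurons was 708 and 541 CPM in mice 16 and 55 and 156 to 258 elsewhere. Sums for oligodendrocyte precursors, microglia and meninges were also higher in both mice than in every other, and the endothelium sum was lower. Sums for Purkinje cells, molecular layer interneurons, unipolar brush cells, Bergmann glia with astrocytes and choroid plexus did not set both mice apart in one direction. The oligodendrocyte sum was 7008 and 5590 CPM in mice 16 and 55 and 2511 to 4227 elsewhere. The granule cell sum was 2766 and 3576 against 4747 to 5685, and the sum of the Golgi cell list was 397 and 340.1 against 152 to 187. The members of the Golgi cell list were uneven. Over all libraries Slc6a5 ranged from 30.6 to 184 CPM, Sst from 0.459 to 26.7, Lgi2 from 88.6 to 168 and Grm2 only from 15.9 to 22.5. The part of these marker sums in the level of Sdk2 was not tested. Without both mice, the log2FC of Sdk2 was 0.14 for SCA1 sedentary against WT sedentary and −0.10 for SCA1 exercise against WT exercise, so that the direction of the second turned. Sdk1 in mice 16 and 55 was the highest of its group, by 1.17 and 0.568 CPM over the next mouse.

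**Figure D3:**
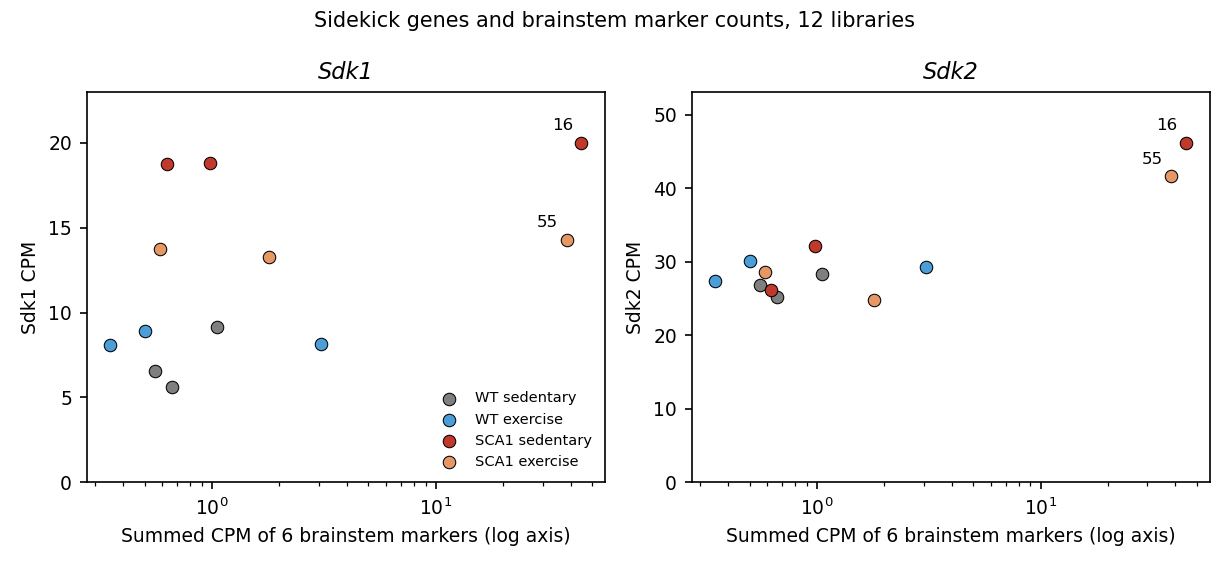
CPM of Sdk1 (left) and Sdk2 (right) on linear axes against the summed CPM of 6 brainstem and spinal cord markers on a log axis, 1 point per library, coloured by group. Mice 16 and 55 stood at marker sums of 44.7 and 38.4, and Sdk2 was highest there, while Sdk1 in these mice stayed next to the other mice of their groups.

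The ratio of Sdk1 to Sdk2 counts, which does not depend on library size, was higher in SCA1 mice. It was 0.223, 0.244 and 0.323 in WT sedentary mice 116, 117 and 192 and 0.293, 0.295 and 0.278 in WT exercise mice 121, 197 and 201. It was 0.433, 0.585 and 0.715 in SCA1 sedentary mice 16, 194 and 195 and 0.343, 0.479 and 0.535 in SCA1 exercise mice 55, 122 and 198. All 6 SCA1 mice were above all 6 WT mice. Sdk1 was chosen for its difference between the sedentary groups, so their part of this separation follows from that choice. The share of all genes with such a separation was not computed. The test was made only in the running groups, where the log2 ratios differed by 0.62 (exact permutation p = 0.1, the smallest possible). Those values were also known when the pair was chosen, so this test is not independent evidence. Per kb of exon, Sdk1 was at 0.641 ± 0.166 and 0.754 ± 0.0415 CPM per kb in sedentary and running WT mice and at 1.73 ± 0.0636 and 1.24 ± 0.0451 in sedentary and running SCA1 mice. Sdk2 was at 1.73 ± 0.102, 1.87 ± 0.0865, 2.25 ± 0.664 and 2.05 ± 0.570 CPM per kb in the same order. The ratio of Sdk1 to Sdk2 per kb of exon, taken in each mouse, averaged 0.367 ± 0.0737 in sedentary WT mice and 0.806 ± 0.197 in sedentary SCA1 mice.

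**Figure D4:**
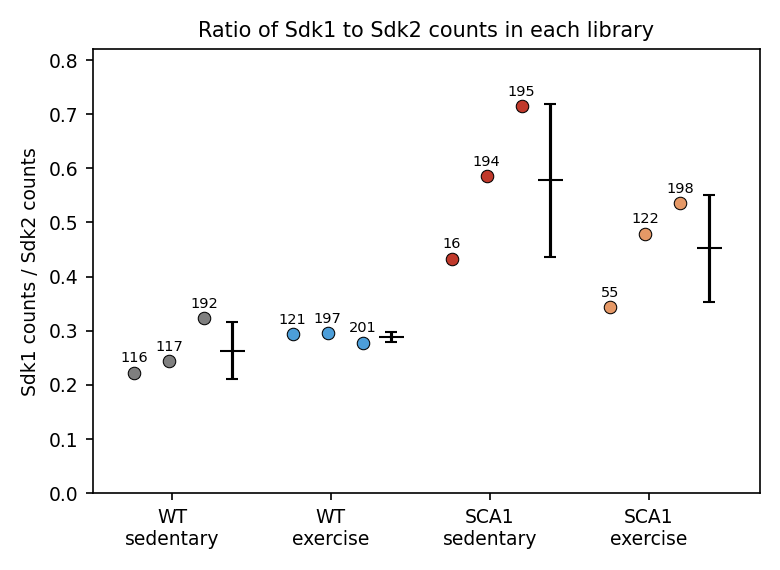
Ratio of Sdk1 to Sdk2 counts in each library on a linear axis from 0, by group, with mouse numbers and the mean and SD of each group (n = 3). The WT mice lay between 0.223 and 0.323 and the SCA1 mice between 0.343 and 0.715, with mice 16 and 55 lowest in their groups.

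Both genes were read on the reverse strand. The forward strand held 0 to 4 counts of Sdk1 per library, at most 1.62% of its counts on both strands, and 0 to 8 counts of Sdk2, at most 0.990%. Over all genes it held 5.54% to 6.01%. Annotated genes within the span of Sdk1 on the other strand that are in the count tables had 0 counts in every library, and the lncRNA Gm39468 within Sdk2 had 1 to 9. The lncRNA Gm73700, which lies over the start of Sdk2 on the other strand in GENCODE M39, is not among the genes counted. The unstranded counts gave a log2FC of 0.76 for Sdk1 in SCA1 exercise against WT exercise mice.

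Purkinje cell markers were followed in the same groups. The 10 Purkinje cell markers were all lower in SCA1 than in WT mice kept sedentary, 2 of them called beside 0.0344% of all genes, with a median log2FC of −0.70 against 0.02 over all genes. In the same contrast all 8 granule cell markers were lower, with a median of −0.45, and 4 of the 6 markers of Bergmann glia and astrocytes were lower, with a median of −0.36. edgeR called 0 in both lists, with 5 and 3 at an unadjusted p under 0.05, beside 10.1% of all genes. The granule cell sum was uneven among SCA1 sedentary mice, at 2766 CPM in mouse 16 and 4747 and 5205 in mice 194 and 195. It was 5565 to 5685 CPM in WT sedentary mice. The summed level of the Purkinje cell markers was 4895 to 6515 CPM in SCA1 sedentary, 6593 to 7904 in SCA1 exercise, 7962 to 8964 in WT sedentary and 8429 to 8937 in WT exercise mice. The groups thus came in nearly the reverse of their order for Sdk1. The 7 markers of molecular layer interneurons summed to 384 to 419 and 431 to 460 CPM in sedentary and running WT mice and to 367 to 415 and 369 to 495 CPM in sedentary and running SCA1 mice. In edgeR 0 of them were called and 0 had an unadjusted p under 0.05 in any comparison. The choroid plexus sum was 7.47 to 399 and 796 to 1877 CPM in sedentary and running WT mice. It was 8.66 to 1147 and 513 to 1575 CPM in sedentary and running SCA1 mice. All 5 choroid plexus markers were higher in SCA1 sedentary and in WT exercise than in WT sedentary mice, with median log2FC of 2.28 and 3.05. In edgeR 0 were called, with 3 and 4 at an unadjusted p under 0.05, beside 10.1% and 4.69% of all genes. Whether these cell types bear on the level of Sdk1 was not tested. In whole cerebellum, more or fewer cells of a type and more or less RNA per cell cannot be told apart.

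The MAGI scaffolds, which bind the tails of Sidekicks, passed the threshold in none of the comparisons. Of all genes, 0.0344% passed it between the sedentary groups and 0.0% in the other comparisons, so this does not set the scaffolds apart. Magi1 was at 122 ± 12.3 and 117 ± 2.52 CPM in sedentary and running WT mice and at 148 ± 6.18 and 133 ± 6.42 CPM in sedentary and running SCA1 mice. Its log2FC was 0.29 (SE 0.09, p-adj = 0.310, edgeR) between the sedentary groups and 0.18 (SE 0.09, p-adj = 0.960, edgeR) between the running groups. Magi2 had log2FC values of 0.14 and 0.04 in the same contrasts. Magi3 had 0.42 and 0.25, and its 2 highest values, 55.6 and 42.6 CPM, were again in mice 16 and 55, against 25.2 to 30.8 CPM in the others.

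Among 47 adhesion genes in 5 lists, MAGI scaffolds included, edgeR called 0 in each of the 5 comparisons, beside 0.0344% of all genes between the sedentary groups and 0.0% in the others. The lists hold relatives that combine immunoglobulin and fibronectin domains, such as Dscam, the contactins, the Robo receptors and receptor tyrosine phosphatases, and adhesion molecules with immunoglobulin domains alone. Between the sedentary groups 31 were higher and 16 lower in SCA1 mice, with a median log2FC of 0.11 against 0.02 over all genes, and 6 had an unadjusted p under 0.05, as 10.1% of all genes did. Between the running groups 28 were higher and 19 lower, with a median of 0.03 against 0.00, and 1 had an unadjusted p under 0.05, as 2.93% of all genes did. For running within WT and within SCA1 mice 21 were higher and 26 lower, with medians of −0.02, and 0 had such a p, beside 4.69% and 2.17% of all genes. DESeq2 called 1 of the 47, Robo1, in the sedentary contrast and 0 for running or between the running groups. By list, the median log2FC between the sedentary groups was 0.29 for the 3 MAGI scaffolds, 0.10 for the 8 Dscam and contactin genes, 0.24 for the 6 genes of the L1 and NCAM family, 0.05 for the 15 receptors with both kinds of domain and 0.11 for the 15 molecules with immunoglobulin domains alone.

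Robo1, a Slit receptor of axon guidance, came nearest to the threshold. It was at 47.3 ± 4.54 and 51.5 ± 3.28 CPM in sedentary and running WT mice and at 78.2 ± 12.5 and 65.7 ± 5.42 CPM in sedentary and running SCA1 mice. Its log2FC between the sedentary groups was 0.72 (SE 0.12, p-adj = 0.0756, edgeR), and it was called there in 5 of 21 alternative settings. The other adhesion genes with large fold changes were uneven within groups. Cntn5, a contactin, had 16.1 CPM in mouse 16 and 4.16 and 2.12 in the other SCA1 sedentary mice. Dcc, a netrin receptor, had 45.2 CPM in mouse 16 and 23.2 in mouse 55, against 9.73 to 15.8 in the other 10 mice. Ptprf, a receptor tyrosine phosphatase, had 107 and 85.4 CPM in these mice against 40.2 to 61.2. Ptprk, Cadm4 and Kirrel1, each among the 3 largest fold changes of a comparison, had p-adj of 1.00, 0.958 and 1.00 there in edgeR. Of the 47 adhesion genes, 11, or 23.4%, were higher in mice 16 and 55 than in every other mouse, beside 17.1% of all genes. In the other direction, 9, or 19.1%, were lower in both than in every other mouse, beside 13.9% of all genes.

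**Figure D5:**
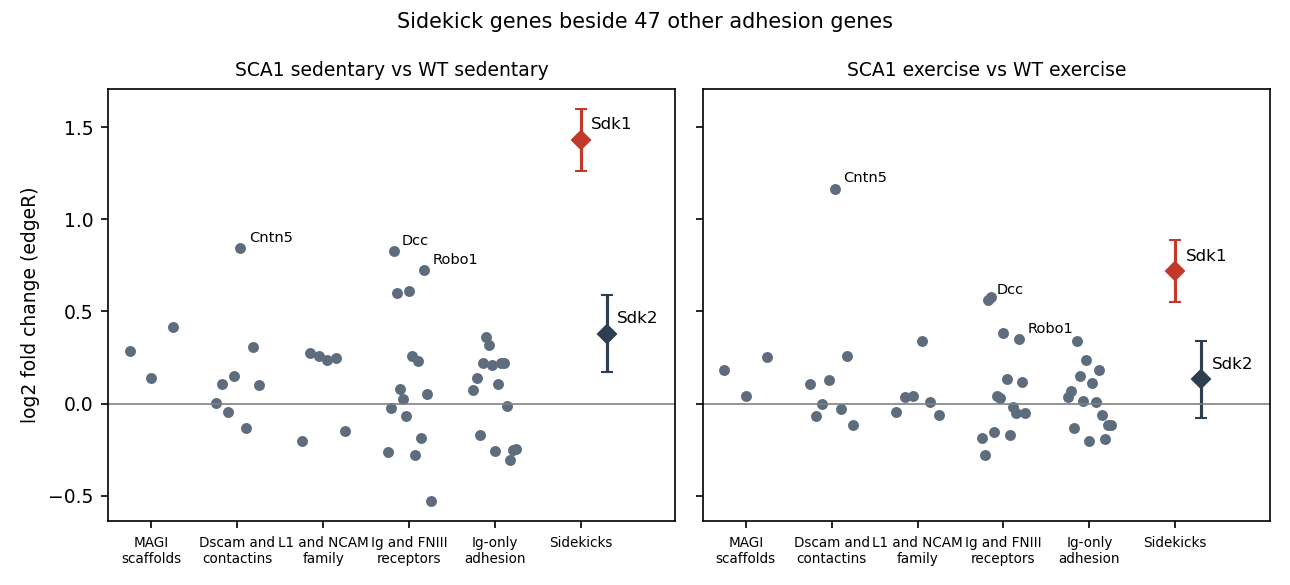
Fitted log2FC of each of 47 adhesion genes by list (grey points) and of Sdk1 and Sdk2 (diamonds, bars for the SE) between the sedentary groups (left) and the running groups (right). Sdk1 was at 1.43 on the left, above every adhesion gene shown. That is the contrast on which Sdk1 was chosen, so its place there follows from the choice. On the right Sdk1 was at 0.72 and Cntn5 was higher at 1.17 (SE 0.80).

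Across the 12 libraries, the genes most like Sdk1 by Pearson correlation of log2 CPM, among 13135 genes with an average log2 CPM of at least 2, were Nrg3 (r = 0.961), Robo1 (r = 0.935), Ebf4 (r = 0.923), Csmd1 (r = 0.922) and Sipa1l2 (r = 0.921). These are descriptions over 12 points that share the difference between groups. Nrg3, a neuregulin ligand of ErbB4, was at 31.8 ± 0.804 and 34.5 ± 2.04 CPM in sedentary and running WT mice and at 48.7 ± 1.78 and 42.5 ± 2.35 CPM in sedentary and running SCA1 mice. It had the order of groups that Sdk1 had, with a narrower range. Sdk2 was in place 1122 of this order, with r = 0.522. With group means removed the leading genes were 9430021M05Rik (r = 0.936), Ptprt (r = 0.935), Fryl (r = 0.926), Gm6483 (r = 0.915) and Shq1 (r = 0.895), all highest within the WT sedentary group in mouse 192, as Sdk1 was. Sdk2 then had r = 0.345.

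The 5 genes most like Sdk2 included Mast4 (r = 0.973), Ptpn11 (r = 0.960), Wwc2 (r = 0.959) and Ephb6 (r = 0.958). With group means removed they included Sec22c (r = 0.991), Tnk2 (r = 0.984), Tmtc1 (r = 0.979) and Rab11fip4 (r = 0.976). All of these named genes were highest in mice 16 and 55. Wwc2, a regulator of Hippo signalling, was at 48.0 and 45.2 CPM there and 29.8 to 34.8 CPM in the other mice.

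Sdk1 is a very long gene, and it was set beside other long genes. Of 243 further genes that span at least 500 kb, 227 were tested. Between the sedentary groups 155 of them were higher and 72 lower in SCA1 mice. The median log2FC of the 227 was 0.14, against 0.02 over all genes. Nrg3 was the 1 gene called, beside 0.0344% of all genes. An unadjusted p under 0.05 in edgeR was found for 48 of the 227, 34 higher and 14 lower, beside 10.1% of all genes. Between the running groups 135 were higher and 92 lower, with a median of 0.06 against 0.00. There 0 were called by edgeR, and 12 had an unadjusted p under 0.05, 9 higher and 3 lower, beside 2.93% of all genes. The log2FC of Sdk1 was 1.43 and 0.72 in these contrasts. Sdk1 was chosen on the first of them, so its place beside other long genes there follows from that choice.

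The neighbours of Sdk1 on chromosome 5 had smaller fold changes. The 3 nearest tested genes on each side, Gna12, Amz1 and Brat1 before it and Foxk1, Ap5z1 and Radil after it, lie 186 to 522 kb away. Their log2FC was 0.05 to 0.28 between the sedentary groups and −0.18 to 0.34 between the running groups, against 1.43 and 0.72 for Sdk1. All 6 were above 0 in the first contrast, and none was called in either contrast, beside 0.0344% and 0.0% of all genes. Sdk1 was chosen on the first contrast, so its larger fold change there follows from that choice. The difference between these genes and Sdk1 was not tested. The neighbours of Sdk2, Cpsf4l, Mtnap1 and Cdc42ep4 on one side and 4932435O22Rik, Rpl38 and Ttyh2 on the other, were not called in any comparison either.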

How the data were processed

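The authors sequenced rRNA-depleted, directional libraries as 151-base read pairs. They assessed quality with FastQC (0.11.9 per the labels), trimmed reads with high adapter content with fastp 0.24.0 and aligned them to GRCm39 with STAR 2.7.10a. They deposited the raw gene counts of STAR, which are not normalized and come unstranded and by strand, and the annotation release is not given in the sources used here. For 2 samples of lower RNA integrity the authors shortened fragmentation and changed the amplification, and which samples these were is not given in the sources used here.

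Reverse-strand counts of 56941 genes were used, and 56323 IDs matched GENCODE M39. In R 4.3.3 with edgeR 4.0.16, filterByExpr by group left 20341 genes, TMM scaled the libraries and a quasi-likelihood model of 4 groups was fitted to 12 libraries, with Benjamini-Hochberg adjustment over all genes tested. Calls needed p-adj below 0.05 together with a log2FC above 0.5 or below −0.5. SE was the log2FC divided by the square root of F. Log2 CPM used a prior count of 2. Exact permutation tests were two-sided. Alternatives included DESeq2 1.42.0, RLE size factors, other filters, unstranded counts, covariates and leaving out mice.

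Both Sidekick genes, the lists and the tests were chosen with earlier results of these data known, from general knowledge of adhesion molecules and cell types. Genes named were the Sidekicks, MAGI scaffolds, the 3 adhesion genes with the largest fold change in each comparison (average log2 CPM at least 2), the 5 genes most correlated with each Sidekick (1 of them is not reported here), the 3 tested neighbours on each side, Atxn1 and markers. Gm39468 and Gm73700 were named after their values and positions were seen.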

Additional observations from a re-analysis of the deposited data

Results flagged for a closer look

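The fitted log2FC of Sdk1 with wheel running had opposite signs in the 2 genotypes, −0.48 (SE 0.16) in SCA1 and 0.23 (SE 0.17) in WT mice. Every SCA1 exercise mouse (13.3 to 14.3 CPM) was below the SCA1 sedentary mean of 19.2 CPM, and every WT exercise mouse (8.06 to 8.89 CPM) was above the WT sedentary mean of 7.11 CPM. The fitted difference between the responses was −0.71 (log2, SE 0.23). It includes the sedentary libraries on which Sdk1 was chosen, so the difference was not tested. The WT part rests on overlapping groups, in which sedentary mouse 192 had 9.17 CPM, above every WT exercise mouse. It does not establish a direction in WT mice. The share of all genes with the same pattern was not computed.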

How the results depend on the processing

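In 21 alternatives (12 of them the fit without a given mouse), the log2FC of Sdk1 in SCA1 exercise against WT exercise mice stayed between 0.69 and 0.76 and was never called (adjusted p 0.163 to 1.00, the lowest with DESeq2). Sdk1 kept its direction in the described contrasts, at 1.28 to 1.65 between the sedentary groups, 0.09 to 0.46 for running in WT and −0.50 to −0.45 for running in SCA1 mice. The direction of Sdk2 turned in several settings, and it was called in none. For SCA1 exercise against WT exercise it was −0.10 without mice 16 and 55 and −0.0582 with the percent of read pairs without a gene as a covariate, and leaving out 1 mouse gave −0.10 (without mouse 55) to 0.27. For SCA1 exercise against SCA1 sedentary, leaving out 1 mouse gave −0.37 (without mouse 55) to 0.12 (without mouse 16), and 0.0057 without mouse 198. For its interaction of genotype and exercise this gave −0.48 to 0.0109, the latter without mouse 16. The same covariate moved Sdk2 for running in WT mice from 0.11 to 0.31 (adjusted p = 0.588) and the interaction from −0.25 to −0.42 (adjusted p = 0.528). The number of genes called between the running groups, 0 with edgeR, was 3 with DESeq2 and 37 without mice 16 and 55, and leaving out 1 mouse gave 0 to 5, the most without mouse 55 and 1 without mouse 16 or WT exercise mouse 121. The cause was not tested. No paired analysis was possible because the groups share no replicate numbers. With 153 to 566 counts of Sdk1 and 544 to 1308 of Sdk2 per library, the spread between mice (biological coefficients of variation of 15.8% and 18.8% in the fit) and the 3 mice per group limit what can be detected.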
